A study of Mus musculus with 2 samples.

Results

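Messenger RNA for 8 cell surface proteins, Cspg4, Cd248, Alcam, Cd44, Sdc4, Met, Flt1 and F3, was compared between mesoangioblast clones D351 and D16. These proteins are used to tell pericytes, stromal progenitors and endothelium apart. The members were chosen from the platform annotation as every probe set with exactly 1 gene symbol that was one of these names, and the names were picked with their values on these arrays already known. This gave 10 probe sets for 8 genes, out of 7542 genes named on the array, and 0 further probe sets named a member together with another gene.

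Clone D351 and clone D16 are both mouse mesoangioblasts, and each is a single clone, represented by 1 Affymetrix MG-U74B array of its total RNA. Both lines share their origin, an explant of dorsal aorta taken from C57BL6 embryos at day 9.5 and cultured for 5 days. Single cells were then cloned over a feeder layer of primary embryonic mouse fibroblasts stopped with Mitomycin C, in RPMI with 20% fetal calf serum, before the clones were expanded on gelatin. No treatment, genotype or time separates D351 and D16, and the labels name no property by which the clones were picked.

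Mesoangioblasts are progenitors associated with the vessel wall that can be grown for long periods and can be led into several mesodermal fates, smooth muscle among them. In a vessel, endothelial cells line the lumen and carry VEGF receptors, while pericytes wrap the endothelial tube and carry the proteoglycan NG2. Stromal cells of the surrounding connective tissue carry adhesion proteins for matrix and hyaluronan, and several of the proteins described here also act as receptors for growth factors or for clotting factors. No single one of them identifies a cell type by itself.

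The signal is a brightness in arbitrary units on a linear scale, as the submitters processed it, and the levels of different probe sets cannot be set against each other. Values under a floor of 16.8, the median of both arrays pooled, were raised to it before the log2 ratio of D351 over D16 was taken. Where only one of the arrays reached the floor, the ratio is a bound, and a gene counts as measured when at least 1 array reached the floor. A gene stands for its measured probe set with the highest mean signal, and a difference was counted when the clones lay at least 2-fold apart. Each clone had 1 array, so the spread between cultures is unknown, no test was possible, and each difference is one between 2 RNA samples. Signals summed to 646285 on the D351 array and 653854 on the D16 array. An expression array of a culture cannot tell fewer cells of a type from less RNA per cell.

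Clone D351 had higher signals for tissue factor (F3), the stromal protein endosialin (Cd248) and the VEGF receptor Flt1, and lower signals for Alcam, the heparan sulfate proteoglycan Sdc4, the NG2 proteoglycan Cspg4 and the HGF receptor Met. The hyaluronan receptor Cd44 was bright and close to equal in both clones. Past 2-fold were 7 of the 8 members, 3 of them higher in D351 and 4 of them higher in D16. Among all 4922 measured genes 18.1% lay at least 2-fold apart, with 9.49% higher in D351 and 8.57% higher in D16. Because the members were picked for their differences, nothing is read from their count against these shares. The member ratios ran from a log2 ratio of -3.74 for Alcam to 3.52 for F3, with a median of -0.59, while the median of all measured genes was -0.01.

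**Figure D1:**
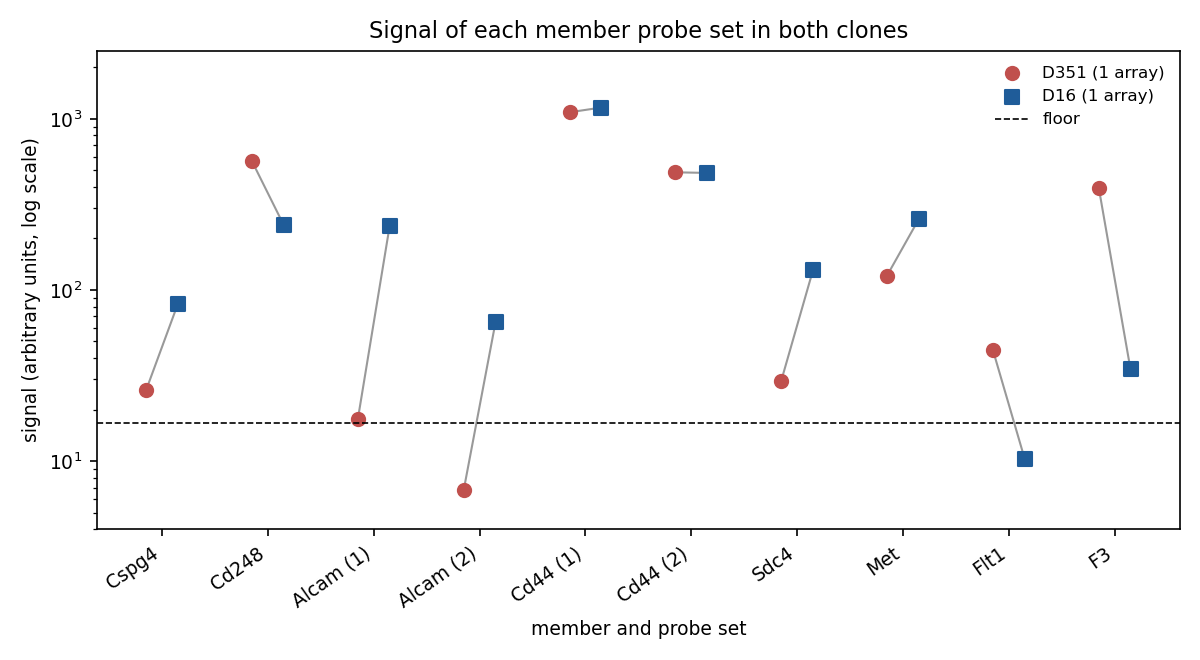
Signal (arbitrary units, log scale) of each of the 10 member probe sets in clone D351 (circles) and clone D16 (squares), 1 array each, with the floor of 16.8 as a dashed line. F3, Cd248 and Flt1 sit higher in D351, both Cd44 probe sets are nearly level, and the other 4 genes sit higher in D16.

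Under the floor was 1 probe set on each array, the dimmer Alcam probe set in D351 and the Flt1 probe set in D16. A 1.5-fold rule also gave 7 of 8 members, with 39.7% of all measured genes past it. A 3-fold rule left 4 members, F3 towards D351 and Alcam, Sdc4 and Cspg4 towards D16, with 6.38% of all measured genes past it. Cd248 and Met were the members nearest the 2-fold line, at log2 ratios of 1.24 and -1.10.

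**Figure D2:**
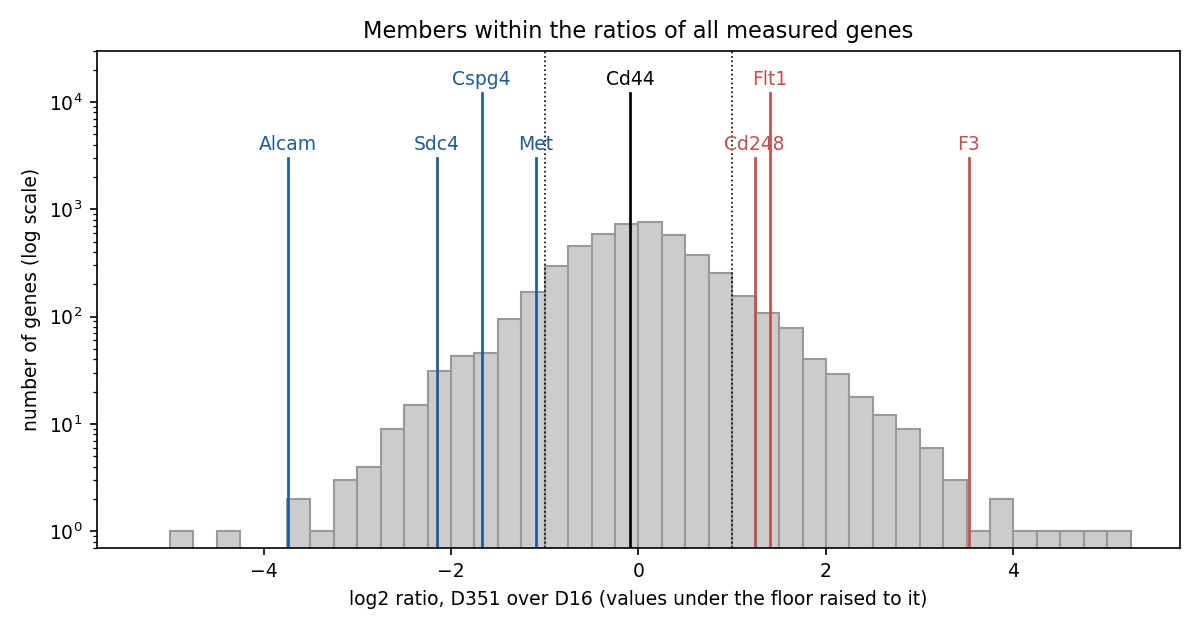
Histogram of the log2 ratio of D351 over D16 for all 4922 measured genes (number of genes on a log scale), with the 8 members as vertical lines and 2-fold as dotted lines. Alcam and F3 lie in the outer tails, Cd44 lies near the middle, and Cd248 and Met lie just past the dotted lines.

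The sequences just upstream of the annotated starts are shown for both of the members that differed most (F3 and Alcam), for a growth factor receptor in each direction (Flt1 and Met), and for Cd44 as the member near equality. The RefSeq promoter table of build GRCm38.p6 held 7 of the 8 members, all but Cd248. Each line gives the 250 bases before the start, 5′ to 3′ in the direction of the gene, with capitals marking matches on either strand to 4 motifs. The AP-1 motif was searched as TGANTCA. The cyclic AMP response element (CRE) was searched as TGACGTCA. The TATA motif was searched with the letters TATAAA. The GC box was searched with the letters GGGCGG, and no match overlapped another.
F3, chr3:121723287-121723536, plus strand: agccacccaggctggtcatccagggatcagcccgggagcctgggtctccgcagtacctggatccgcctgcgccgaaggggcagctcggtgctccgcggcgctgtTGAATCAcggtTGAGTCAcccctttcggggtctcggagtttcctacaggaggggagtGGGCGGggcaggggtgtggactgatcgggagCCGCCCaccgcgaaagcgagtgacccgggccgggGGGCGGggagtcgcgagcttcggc
Flt1, chr5:147726012-147726261, minus strand: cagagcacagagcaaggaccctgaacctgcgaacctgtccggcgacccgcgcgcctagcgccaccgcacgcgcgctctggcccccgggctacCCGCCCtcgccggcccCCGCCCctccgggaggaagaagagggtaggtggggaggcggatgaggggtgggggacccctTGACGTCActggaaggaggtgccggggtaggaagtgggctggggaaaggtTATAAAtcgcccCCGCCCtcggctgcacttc
Met, chr6:17463707-17463956, plus strand: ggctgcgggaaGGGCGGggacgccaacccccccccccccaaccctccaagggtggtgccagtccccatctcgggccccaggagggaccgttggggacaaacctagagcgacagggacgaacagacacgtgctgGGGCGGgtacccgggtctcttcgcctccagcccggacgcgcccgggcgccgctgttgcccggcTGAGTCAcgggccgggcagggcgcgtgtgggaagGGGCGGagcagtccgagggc
Alcam, chr16:52453082-52453331, minus strand: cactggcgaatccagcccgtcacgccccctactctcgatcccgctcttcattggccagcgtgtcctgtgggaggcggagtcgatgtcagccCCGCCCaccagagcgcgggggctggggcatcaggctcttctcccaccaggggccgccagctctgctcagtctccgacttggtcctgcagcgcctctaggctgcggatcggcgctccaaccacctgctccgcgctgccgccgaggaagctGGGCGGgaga
Cd44, chr2:102901666-102901915, minus strand: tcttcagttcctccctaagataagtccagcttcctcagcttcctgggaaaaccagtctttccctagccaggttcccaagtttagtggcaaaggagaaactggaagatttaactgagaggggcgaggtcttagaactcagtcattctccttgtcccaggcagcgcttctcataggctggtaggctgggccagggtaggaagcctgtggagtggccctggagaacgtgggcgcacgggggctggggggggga

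The F3 window held 2 AP-1 matches, whose first bases lay 146 and 135 bases before the start, and 3 GC boxes. Met, which differed in the other direction, held 1 AP-1 match (54 bases before the start) and 3 GC boxes. Flt1 held the CRE (81 bases before the start), the TATA match (31 bases before the start) and 3 GC boxes. Alcam held 2 GC boxes and no other match, and the Cd44 window held 0 matches to all 4 motifs. Of the windows not shown, Cspg4 held 2 GC boxes and Sdc4 held 4. Among 32851 windows of the same length in the table, 6.75% held an AP-1 match, 1.55% a CRE, 12.4% a TATA match and 32.7% a GC box. The GC content was 70.0% for F3, 69.2% for Alcam and 56.4% for Cd44, and the median over all windows was 52.4%. A match describes letters in a window and does not show that a factor binds there.

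Cspg4 encodes NG2, the transmembrane chondroitin sulfate proteoglycan that is the most widely used surface marker of pericytes. Its signal was 26.1 in D351 and 83.3 in D16. Clone D351 was thus 3.19-fold lower (log2 ratio -1.67), with both arrays above the floor. The D351 signal is close to the floor, and with the floor raised to the 75th percentile (53.5) the log2 ratio was -0.64 and no longer past 2-fold.

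The other pericyte and mural markers on the array gave few measurements. Of 30 listed markers 10 were on the array and 6 of these were under the floor in both clones, among them Rgs5, a regulator of G protein signalling enriched in pericytes (7.5 in D351 and 3.7 in D16). The 4 measured ones had a median log2 ratio of -0.56, and Cspg4 was the 1 member of the list past 2-fold. S1pr3, a receptor for sphingosine-1-phosphate, read 480.5 in D351 and 806 in D16 (log2 ratio -0.75), and Steap4, a metalloreductase, read 64.4 in D351 and 83 in D16. The sum over the 9 pericyte markers other than Cspg4 was 613.6 in D351 and 968.8 in D16, most of it from S1pr3.

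Among genes for chondroitin sulfate proteoglycans, their synthesis and NG2 partners, 8 of 25 were on the array and 3 were measured. Chst12, a chondroitin 4-O-sulfotransferase, read 141.4 in D351 and 40.5 in D16, which is 3.49-fold higher in D351 and opposite in direction to Cspg4. Chsy1, which builds the chondroitin chain, read 199.6 in D351 and 281.2 in D16 (log2 ratio -0.49). The proteoglycans Cspg5 and Bcan, known from the nervous system, were under the floor in both clones.

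Cd248 encodes endosialin, a C-type lectin membrane protein of fibroblasts and pericytes that binds matrix proteins. It read 564 in D351 and 238.9 in D16, so both clones were well above the floor. The D351 signal was 2.36-fold higher (log2 ratio 1.24). Its relatives of the same lectin family lay under the floor. Cd93 read 1.5 in D351 and 2 in D16, and Clec14a read 5.1 in D351 and 4.8 in D16. Mmrn2, an endothelial matrix protein that binds these lectins, read 19.2 in D351 and 21.4 in D16.

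Alcam, also called CD166, mediates contact between cells of the same kind and is one of the surface proteins used to describe mesenchymal stromal cells. Its brighter probe set read 17.7 in D351 and 236.7 in D16. Its other probe set read 6.8 in D351 and 64.7 in D16. Both probe sets place D16 high and D351 at or under the floor, and the first gave a 13.4-fold lower signal in D351 (log2 ratio -3.74). The second gave a signal at least 3.85-fold lower in D351 (log2 ratio at most -1.95). The D351 signal of the brighter probe set lies just above the floor. Its log2 ratio was -2.15 under a floor at the 75th percentile, and the median over both probe sets was -2.84. Only 2 of the 4922 measured genes had a lower ratio than Alcam, a rank that depends on the floor because some ratios are bounds.

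Among 40 genes for adhesion molecules of the same immunoglobulin superfamily, 21 were on the array and 9 were measured. Alcam and Cadm4, a homophilic adhesion molecule, were past 2-fold and both lower in D351. Cadm4 read 56.3 in D351 and 168.5 in D16 on an _r probe set, a design made under relaxed rules (2.99-fold), and at most a log2 ratio of -1.77 on an _i probe set. A plain Cadm4 probe set read below the floor in both clones. The list as a whole had a median log2 ratio of 0.12, and its other 7 measured genes lay within 2-fold. Of these, Igsf3 (86.7 in D351 and 45.7 in D16) and the nectin Nectin1 (168.5 in D351 and 114.5 in D16) were brighter in D351. Another Nectin1 probe set was close to equal (55.4 in D351 and 50.5 in D16, log2 ratio 0.13).

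Cd44, the main cell surface receptor for hyaluronan, is found on many mesenchymal and blood cells and was the member closest to equality. Its brighter probe set read 1092.5 in D351 and 1164.5 in D16, and its other probe set read 487.1 in D351 and 483.1 in D16. The log2 ratios were -0.09 and 0.01, so the probe sets lay on opposite sides of equality by a small amount. The ratio of the brighter one was between -0.25 and 0.43 under all other settings and changed sign when the arrays were scaled to hybridisation controls.

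The hyaluronan list around Cd44 held 8 of 29 genes on the array, of which 6 were measured and 0 passed 2-fold in either direction, with a median log2 ratio of -0.17. Has2, the main hyaluronan synthase of mesenchymal cells, read 44.9 in D351 and 79.2 in D16 (log2 ratio -0.82). Cemip2, a membrane protein of hyaluronan turnover, read 30.2 in D351 and 35.9 in D16. The scavenger receptors Stab1 and Stab2 lay near the floor in both clones, and Lyve1, the lymphatic hyaluronan receptor, read 0.5 in D351 and 5.2 in D16.

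**Figure D3:**
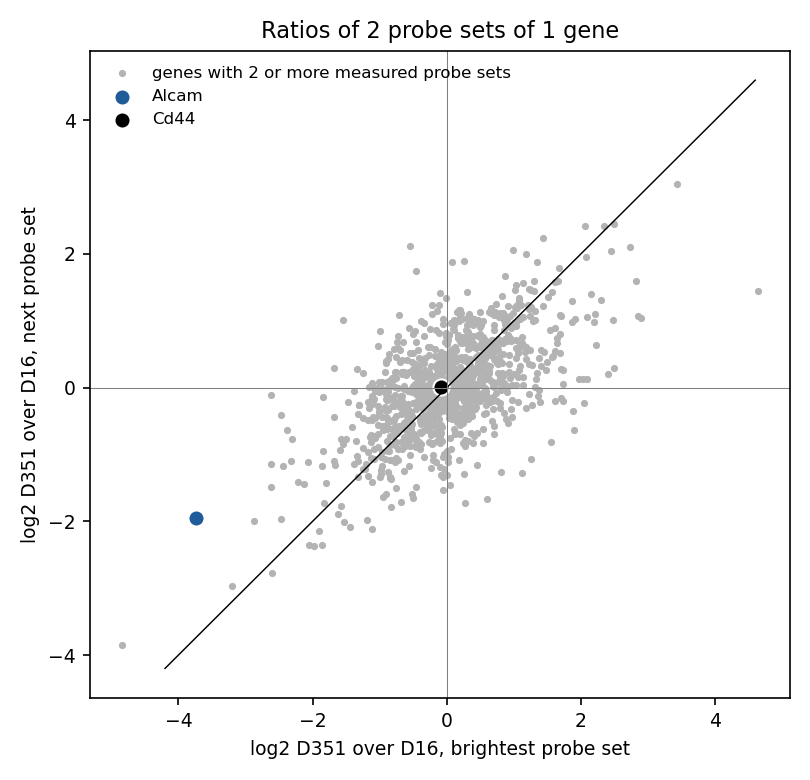
Log2 ratio of D351 over D16 on the brightest probe set (x axis) against the next brightest (y axis) for 1113 genes with several measured probe sets, with equality as a diagonal line. Alcam (blue) is far below 0 on both axes but off the diagonal, where its y value is a bound, and Cd44 (black) is close to 0 on both.

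Alcam and Cd44 were the members with more than 1 probe set, which allows a check against probe design. Over the 1113 genes that had several measured probe sets, the SD of the difference between the ratios was 0.71 on the log2 scale, or 0.50 per probe set. The Cd44 probe sets differed by 0.10. The Alcam probe sets differed by 1.80, and 2.43% of all pairs differed by more, but the dimmer Alcam ratio is a bound set by the floor. These values cover probe design on these arrays and not differences between cultures.

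Sdc4 is a transmembrane heparan sulfate proteoglycan that sits in focal adhesions, binds fibronectin together with integrins and presents growth factors. It read 29.5 in D351 and 130.8 in D16. The D351 signal was 4.43-fold lower (log2 ratio -2.15), on an _s probe set, a design that can be shared by related transcripts. Its log2 ratio lay between -2.19 and -1.29 under the other settings that could measure it.

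Another syndecan went the other way. Sdc3, a syndecan of nerve and muscle progenitors, read 328.9 in D351 and 73.9 in D16 on a plain probe set, 4.45-fold higher in D351. Prkca, the protein kinase C isoform that the cytoplasmic tail of Sdc4 binds and activates, read 218.6 in D351 and 50.5 in D16, 4.33-fold higher in D351. Gpc4, a lipid-anchored heparan sulfate proteoglycan, read 89 in D351 and 43.5 in D16, 2.05-fold higher in D351, and its relative Gpc6 read 183.5 in D351 and 124.3 in D16 (log2 ratio 0.56). Of 25 syndecan, glypican and partner genes 11 were on the array and 7 were measured, 3 at least 2-fold higher in D351 and 1, Sdc4, at least 2-fold lower. The list median was 0.56.

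Met is the tyrosine kinase receptor for HGF, which drives scattering and migration in epithelial cells and in muscle precursors. It read 121.5 in D351 and 259.8 in D16. The D351 signal was 2.14-fold lower (log2 ratio -1.10), with both arrays well above the floor. When the arrays were scaled to hybridisation controls the log2 ratio was -0.57, within 2-fold.

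Of 33 genes of the HGF and MET pathway 16 were on the array and 13 were measured, with a median log2 ratio of -0.06. Besides Met, Pik3r1 was past 2-fold, a regulatory subunit of phosphatidylinositol 3-kinase that acts below many receptors. It read 184.2 in D351 and 59 in D16, 3.12-fold higher in D351, and another Pik3r1 probe set read below the floor in both clones. Cbl, a ubiquitin ligase that directs Met to degradation, read 274.4 in D351 and 141.9 in D16 (log2 ratio 0.95, within 2-fold). Its relative Cblb read 63.1 in D351 and 33.3 in D16 (log2 ratio 0.92), with 0.23 on another probe set. The phosphatase Ptpn11, a signal transducer of receptor kinases, read 589.6 in D351 and 721.9 in D16. St14 and Spint1, a protease that activates HGF and an inhibitor of such proteases, were under the floor in both clones.

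Flt1 is VEGF receptor 1, which binds VEGF-A with high affinity and is found on endothelium and macrophages. It read 44.5 in D351 and 10.3 in D16. D16 was under the floor, so the D351 signal was at least 2.65-fold higher (log2 ratio at least 1.41). Both signals are low, and with the floor at the 75th percentile neither clone reached it and no ratio was given.

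The rest of the endothelial list was mostly under the floor. Of 43 endothelial markers 14 were on the array and 9 were under the floor in both clones, among them the TGF-beta co-receptor Eng (2.5 in D351 and 7.5 in D16), the adhesion molecule Esam (10.8 in D351 and 11.5 in D16) and Robo4 (6.9 in D351 and 5.1 in D16). The 13 other than Flt1 summed to 158.2 in D351 and 206.4 in D16, and 0 were listed at 0. Plvap and Nrp2 made the largest parts of the D16 sum, and signals under the floor are part of both sums. Nrp2, a co-receptor for VEGF and semaphorins, read 18.7 in D351 and 54.8 in D16, 2.93-fold lower in D351 and opposite to Flt1. Mmrn2 had a log2 ratio of -0.16, as did Plvap on an _r probe set while its plain probe sets read below the floor in both clones, and Calcrl had one of at most -0.15. The list median was -0.16 over 5 measured genes, with 1 higher in D351 and 1 lower.

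Of 24 genes listed for VEGF and angiopoietin ligands, receptors and their partners, 8 were on the array and 5 were measured, with a median log2 ratio of 0.19. That median is the ratio of Arnt, which is neither a ligand nor a receptor (493.6 in D351 and 433.7 in D16). Another Arnt probe set gave a log2 ratio of 1.16. Vegfa, the main ligand of Flt1, read 45.8 in D351 and 34.8 in D16 on an _r probe set (log2 ratio 0.40). Plcg1, a phospholipase that VEGF receptors activate, read 55.5 in D351 and 70 in D16. Ptprb, a phosphatase of endothelial receptors, was under the floor in both clones.

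F3 encodes tissue factor, the membrane receptor for clotting factor VII that starts the extrinsic coagulation cascade and is carried by fibroblasts, pericytes and smooth muscle around vessels. It read 394.7 in D351 and 34.3 in D16. The D351 signal was 11.5-fold higher (log2 ratio 3.52), with both arrays above the floor. The value rests on 1 _f probe set, a design shared with related transcripts, for which the annotation gave no accession. The log2 ratio lay between 2.88 and 4.05 under the other settings that could measure it. Its ratio was the 8th towards D351 among the 4922 measured genes.

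Only 4 of 30 tissue factor pathway and surface proteolysis genes were on the array. Tfpi, the inhibitor of the tissue factor complex, read 21.6 in D351 and 7.7 in D16, a log2 ratio of at least 0.36. S100a10, which holds plasminogen activators at the surface together with annexin, read 24.8 in D351 and 17.7 in D16 (log2 ratio 0.49). F10, the clotting factor activated by the tissue factor complex, was under the floor in both clones. The median of the 3 measured genes was 0.49.

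Markers of stromal and mesenchymal progenitors went both ways. Of 30 listed surface markers 10 were on the array and 5 were measured, 3 of them at least 2-fold higher in D351 (Itga11, Bst2 and Cd248) and 1 at least 2-fold lower (Alcam), with Cd44 near equality and a median log2 ratio of 1.24. This median was -0.046 with the floor lowered to the 25th percentile and 0.57 over genes that reached the floor in both clones. Itga11, the collagen-binding integrin subunit of fibroblasts, read 617.2 in D351 and 2.9 in D16, at least 36.7-fold higher in D351. Bst2, also called tetherin, read 219.6 in D351 and 87.9 in D16, 2.50-fold higher in D351, while its _i probe set read below the floor in both clones. The other 5, Nt5e, Eng, Ngfr, Mme and Lrrc15, were under the floor in both clones. Nt5e, also called CD73 and widely used for mesenchymal stromal cells, read 1.2 in D351 and 1.6 in D16.

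Most measured genes listed as markers of embryonic fibroblasts, the cells of the feeder layer, lay in the same direction as F3 and Flt1. Of 30 such markers 6 were on the array, all 6 were measured, and 5 were at least 2-fold higher in D351 (Sfrp1, Aspn, Prrx1, Col5a2 and Cd248 itself) and 1, Tcf4, at least 2-fold lower. The summed signal of the 6 markers was 2454.2 in D351 and 997.2 in D16, or 1890.2 in D351 and 758.3 in D16 without Cd248. The largest part of the sum without Cd248 was Sfrp1 in D351 (900.3) and Tcf4 in D16 (544.8). Such sums depend on the brightest probe sets. None of the 6 was listed at 0 on either array, and the lowest signal was that of Aspn in D16 (3.6). Aspn and Col5a2 (12.4) were under the floor in D16, so their ratios are bounds. Whether the gene with the symbol Tcf4 marks embryonic fibroblasts was not checked, so its direction may not concern the feeder layer. The sums that include Tcf4 carry the same doubt, most of all in D16. The part of the 6 listed markers in the surface profile was not tested.

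Of 14 surface and muscle markers reported for mesoangioblasts, 3 were on the array, and these were the members Cspg4, Cd44 and Flt1. Cd44 was bright in both clones, Cspg4 was above the floor in both, and Flt1 only in D351. Blood and macrophage markers (26 listed) had 0 genes among the named probe sets, so they are not analysed here. Epithelial markers gave 1 measured gene of 6 on the array, the transcription factor Ovol1, at 90.9 in D351 and 103.8 in D16. Another plain Ovol1 probe set read below the floor in both clones (2 in D351 and 10.3 in D16). Smooth muscle contractile genes had 3 measured of 10, of which Mylk, the myosin light chain kinase, was past 2-fold (148.5 in D351 and 21.1 in D16). A _g probe set of Mylk read 50.9 in D351 and 1.1 in D16. Another plain Mylk probe set read below the floor in both clones (1.9 in D351 and 3.1 in D16). The 3 measured satellite cell and skeletal muscle markers were Sdc4 and Met, lower in D351, and Sdc3, higher in D351.

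**Figure D4:**
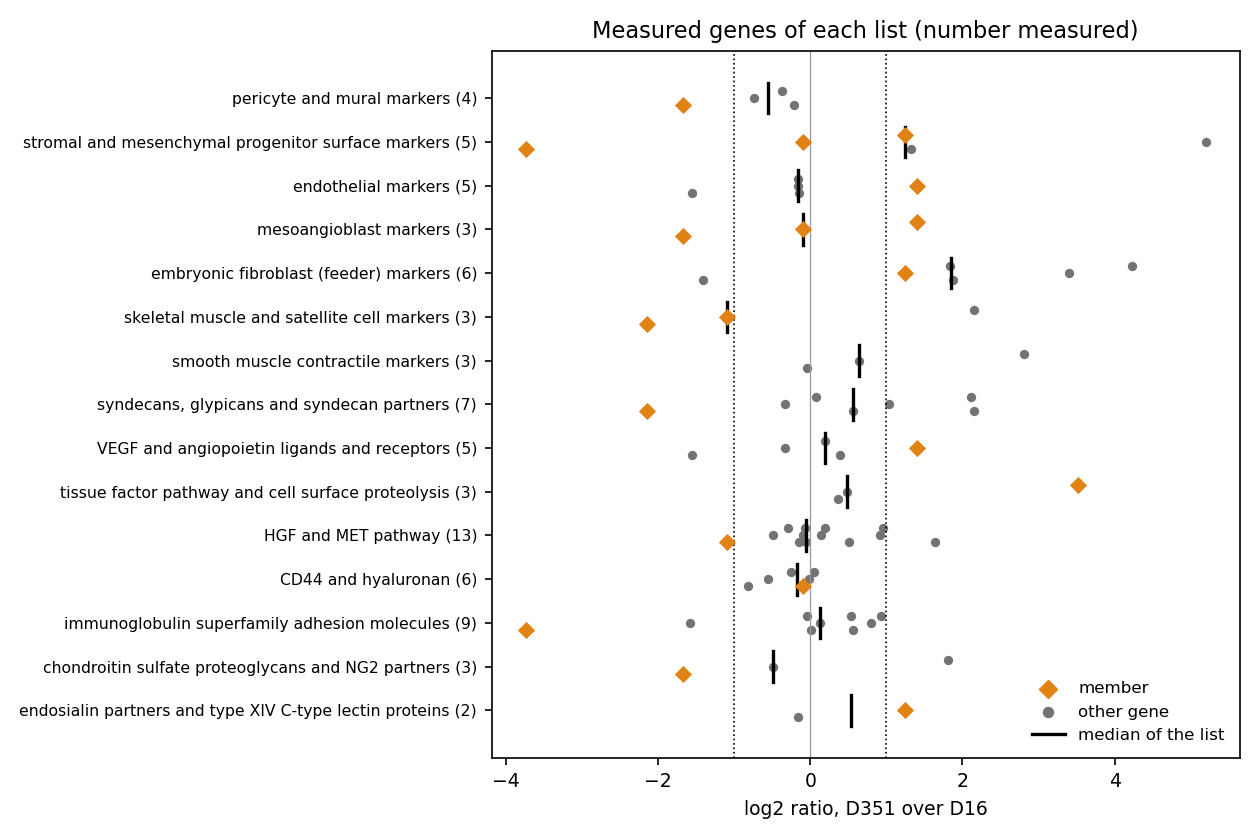
Log2 ratio of D351 over D16 for each measured gene of the 15 lists in which 2 or more genes were measured, with members as orange diamonds, other genes as grey circles, list medians as black bars and 2-fold as dotted lines. In the list of syndecans, glypicans and partners Sdc4 lies left of every other gene, in the endothelial list Flt1 and Nrp2 lie on opposite sides, and in the HGF and MET list 11 of 13 genes lie within 2-fold.

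Position along the chromosome gave another reference, the nearest measured gene on each side in the order of GRCm38.p6, a comparison added after the member values were seen. Cd44, near equality, lies on chromosome 2 between Ldlrad3 (33.3 in D351 and 275.3 in D16, 8.27-fold lower in D351) and Pdhx (14.3 in D351 and 33.5 in D16, at least 1.99-fold lower in D351). Alcam lies on chromosome 16 beside Cblb (log2 ratio 0.92) and Zbtb11 (log2 ratio 0.24), both of which were brighter in D351. Cd248 lies on chromosome 19 beside Rin1, a regulator of Rab and Ras signalling that read 72.3 in D351 and 240.3 in D16 (3.32-fold lower in D351). F3 lies on chromosome 3 beside Arhgap29 (log2 ratio 0.39) and a gene named A530020G20Rik (log2 ratio at least 0.80). The neighbours of Cspg4 on chromosome 9, Lingo1 and Snupn, had log2 ratios of -0.24 and -0.06, and the Met neighbours on chromosome 6, Cav2 and Ing3, had -0.13 and 0.63. Those of Sdc4 on chromosome 2, Stk4 and Dnttip1, had -0.64 and -0.58, and those of Flt1 on chromosome 5, Pan3 and Slc46a3, had -0.73 and at least 0.18. No neighbour was as far from 0 in the same direction as its member, apart from those of Cd44. Because the members were picked for their differences, this was likely beforehand, and nothing is read from it. The distance to a neighbour was not limited.

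For the 7 members whose signals reached the floor on both arrays, the gene with the closest pair of log2 signals was also found. The search covered the 4065 genes whose signals both reached the floor. With 2 values per gene this likeness says little beyond level and ratio. Cspg4 lay closest to Gnaz, Cd248 to Reep3, Cd44 to Prrc2a, Sdc4 to Bub1b and Met to Commd10, at distances from 0.02 to 0.10 on the log2 scale. Alcam lay closest to Ndc1 at a distance of 0.88 and F3 closest to Fkbp14 at 0.55.

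**Figure D5:**
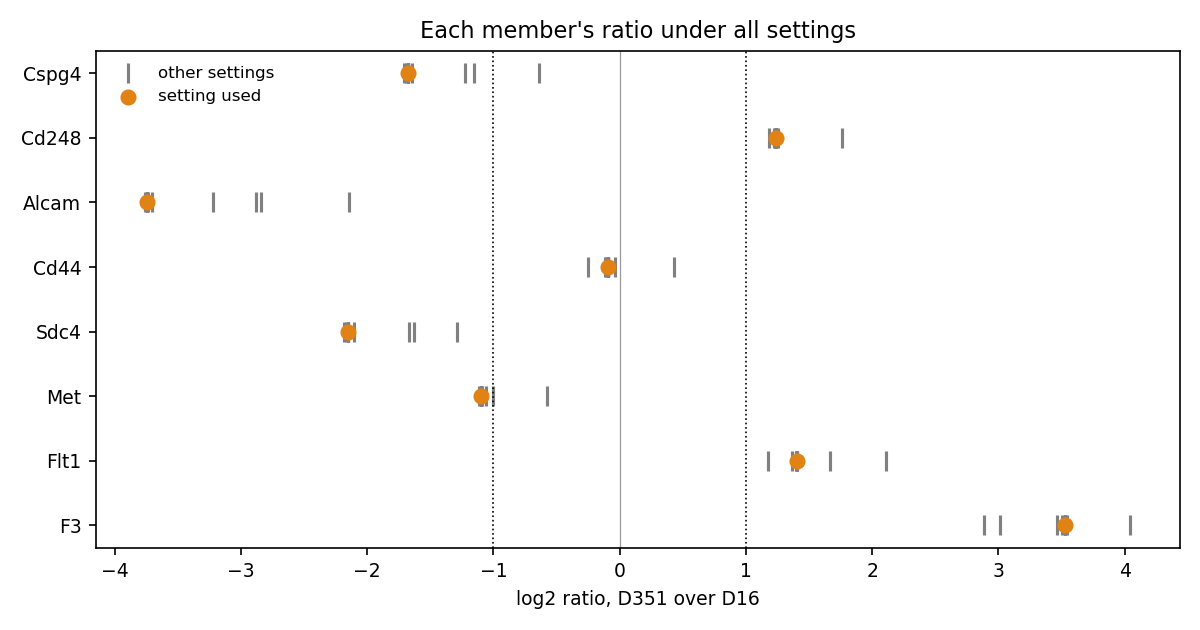
Log2 ratio of D351 over D16 of each member under the setting used (orange) and under the other settings that gave a value (grey ticks), with 2-fold as dotted lines. No member past 2-fold crosses 0, Cspg4 and Met each have 1 tick inside the dotted lines, and Cd44 has 1 tick right of 0.

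The direction of the 7 members past 2-fold was the same under every scaling tried. The arrays were also scaled to the BioB, BioC, BioDn and CreX hybridisation controls, of which 9 reached the floor and 8 were brighter in D16, with a median 1.44-fold higher in D16. This scaling moved the median of all measured genes by 0.46 towards D351 and the split of genes past 2-fold to 1078 higher in D351 and 163 higher in D16, against 467 and 422 as deposited. Under it the members past 2-fold were 6, with 3 higher in D351 (F3, Cd248 and Flt1) and 3 higher in D16 (Alcam, Sdc4 and Cspg4).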

How the data were processed

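Expression was measured on 1 Affymetrix MG-U74B array for each of clones D351 and D16. The deposited intensity values are the authors' processed signals, 1 per probe set and array. The software and background correction are not given in the sources used here. The columns had means of 39.7 (D351) and 39.8 (D16) after trimming 2% at each end, so the values were used as deposited. Precision is limited by the number of arrays.

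The table held 12477 probe sets, 66 of them controls, which were left out. Names came from GEO's platform annotation, which can be old. Of the others, 10581 had 1 symbol, 178 had several and 1652 were unnamed here. Gene IDs of 10550 matched RefSeq names of GRCm38.p6, and 0 were renamed.

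The floor, 2-fold rule and bounds are described with the results, and the ratio step was tested on simulated data. The text names all members, up to 4 other genes past 2-fold per direction from each of 17 lists, and 27 defining genes where present, which 6 were. Other listed genes illustrate their list and were chosen after their values were seen. The members and lists were chosen with earlier results of these data known. The settings tried are in the closing section. Tools were pandas 2.3.3, numpy 2.4.6, statsmodels 0.14.6, scipy 1.17.1 and matplotlib 3.10.9 in Python 3.11.15.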

Additional observations from a re-analysis of the deposited data

How the results depend on the processing

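In all, 11 other settings were listed at the outset and 2, the scaling to hybridisation controls and the floor added to every value, were chosen after seeing the data. No paired analysis was possible because each clone has 1 array. Of the 7 members past 2-fold, Cspg4 fell within it under a floor at the 75th percentile (log2 ratio -0.64) and Met with scaling to the hybridisation controls (-0.57). Flt1 had no ratio under the 75th percentile floor, which left 5 members (2 higher in D351), nor where both arrays had to reach the floor, which left 6 (2 higher in D351). A 3-fold rule left 4 members, 1 of them higher in D351. Plain probe sets alone left 5 members, since those of Sdc4 and F3 have other endings. The count over all genes was 1535 with the floor at the 25th percentile (782 higher in D351 and 753 in D16), 399 at the 75th (211 and 188), 1953 at 1.5-fold (950 and 1003) and 314 at 3-fold (177 and 137). It split into 1078 and 163 under hybridisation controls, and 277 were higher in D16 with the floor added to values.

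List medians moved by more than 0.50, the SD per probe set, as follows. The stromal median was -0.046 under a floor at the 25th percentile, 0.57 where both arrays had to reach the floor and 1.76 under hybridisation controls. The tissue factor median was 2.88 under a floor at the 75th percentile and 2.01 where both arrays had to reach it, settings under which fewer genes were measured. The mesoangioblast marker median was -0.88 where both arrays had to reach the floor and 0.43 under hybridisation controls. The skeletal muscle median was 0.53 with plain probe sets only and -0.27 under hybridisation controls. That scaling also gave -0.034 for pericyte, 0.36 for endothelial, 1.08 for syndecan, 0.47 for HGF and MET, and 0.027 for chondroitin sulfate lists. Signals near the floor, as for Flt1, give bounds and not ratios.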
